A study of Homo sapiens with 24 samples.

Results

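The genes described here encode 10 secreted inflammatory cytokines and chemokines, namely IL1A, IL1B, CXCL8, CXCL1, CXCL2, CXCL3, CCL2, CSF1, LIF and IL6. They were listed by name and matched by symbol to the 57736 genes of the count table, and all 10 were found. Interleukin-1 alpha and beta (IL1A, IL1B) are alarm cytokines that start inflammation through the receptor IL1R1 and the NF-κB transcription factors. CXCL1, CXCL2, CXCL3 and CXCL8 (interleukin-8) are chemokines that draw neutrophils through the receptors CXCR1 and CXCR2, and CCL2 draws monocytes through CCR2. CSF1 is the growth factor of macrophages and microglia, and IL6 and LIF are related cytokines that signal through the shared receptor chain IL6ST to STAT3. Many of these factors are secreted by senescent and DNA-damaged cells, and in glioblastoma they are known for recruiting and sustaining myeloid cells.

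RNA-seq was performed on 24 libraries of U87-T, a line of the human glioblastoma cell line U87 that carries a TERT transgene. DAXX_KO and ATRX_KO are CRISPR knockout lines of U87-T, each grown from 1 clone that survived with features of alternative lengthening of telomeres (ALT), and the WT cells carry the empty Cas9 vector. Each knockout was sequenced beside its own set of WT control line libraries, without and with etoposide, a topoisomerase II inhibitor that breaks DNA, giving a DAXX series and an ATRX series of 4 groups with 3 libraries per group. The labels call the control cells untreated, whereas the study calls them DMSO-treated, and the etoposide dose and time are not given for these libraries in the sources used here. The study describes its experiments in general as biologically replicated, but whether these libraries came from separate cultures is not given in the sources used here, so the tests measure the spread between libraries. Since each knockout is 1 clone, loss of the gene and other features of the clone cannot be told apart.

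Library totals ranged from 6928950 to 13298557 counts. Expression is given as CPM, the counts scaled to a common library size by the TMM method of edgeR, with SD over the 3 libraries of a group. Differences are given as log2 fold change (log2FC) with its SE. This SE is the size of the log2FC divided by the square root of the F statistic of the edgeR test described below. It was thus worked back from the test and not estimated separately. A gene without counts in a library could still have had up to 3, which equals 0.215 to 0.407 CPM by library (counting error only). DAXX mRNA was 34.5 ± 1.27 CPM in WT and 5.93 ± 1.08 in DAXX_KO control cells (log2FC −2.53, SE 0.15, adjusted p 7.34e-11). ATRX mRNA was 189.7 ± 5.08 CPM in WT and 79.4 ± 5.74 in ATRX_KO control cells (log2FC −1.25, SE 0.09, adjusted p 9.38e-09). Mesenchymal markers of glioblastoma lines (VIM, CD44, FN1 and others, 8 genes) summed to 3293 to 9902 CPM in every library. Myeloid markers, the cell type that would make several of these cytokines in a tumour, were low, and 5 of the 10 had at most 3 counts in each of the 24 libraries. Their summed level was 0.586 to 2.57 CPM in control libraries and 3.12 to 7.45 CPM with etoposide. Endothelial markers were also low, with 2 of 4 measured genes at or under 3 counts in all libraries and a summed level of 0.719 to 3.92 CPM. The 3 control libraries of ATRX_KO stood apart from each other for most of the chemokine genes, replicate 1 being the lowest and replicate 3 usually the highest, so values without each library are given beside the results.

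Testing used the quasi-likelihood test of edgeR over all genes of a series, with Benjamini-Hochberg adjusted p-values, and a gene was called at an FDR of 5%. Both knockouts and etoposide changed large parts of the transcriptome, so counts of called genes are set beside the share of all tested genes called in the same comparison. In control cells, 8 of the 10 genes were higher and 1 was lower in ATRX_KO than in WT, where 20.8% of all genes were higher and 21% lower. In DAXX_KO, 2 of the 9 tested genes were higher and 4 lower, where 26.7% of all genes were higher and 26.6% lower. Counts of CXCL1 were too low for the filter in the DAXX series. In bulk libraries, fewer cells that transcribe a gene and less RNA per cell cannot be told apart. The median log2 fold change of the tested genes was 2.59 in ATRX_KO and −0.20 in DAXX_KO, and over all tested genes it was 0.02 in both. Altogether 6 of the 10 genes differed in knockout effect between the clones, a test that called 34.1% of all genes. The 6 include CXCL1, whose counts of 1, 0 and 1 in DAXX_KO control libraries are too low to measure the spread between libraries. CSF1 rose and CCL2 fell in both clones, whereas IL1B, CXCL8 and LIF rose in ATRX_KO and fell in DAXX_KO. The decreases of IL1B and CXCL8 in DAXX_KO and the increase of LIF in ATRX_KO were no longer called without certain single libraries, as given below.

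**Figure D1:**
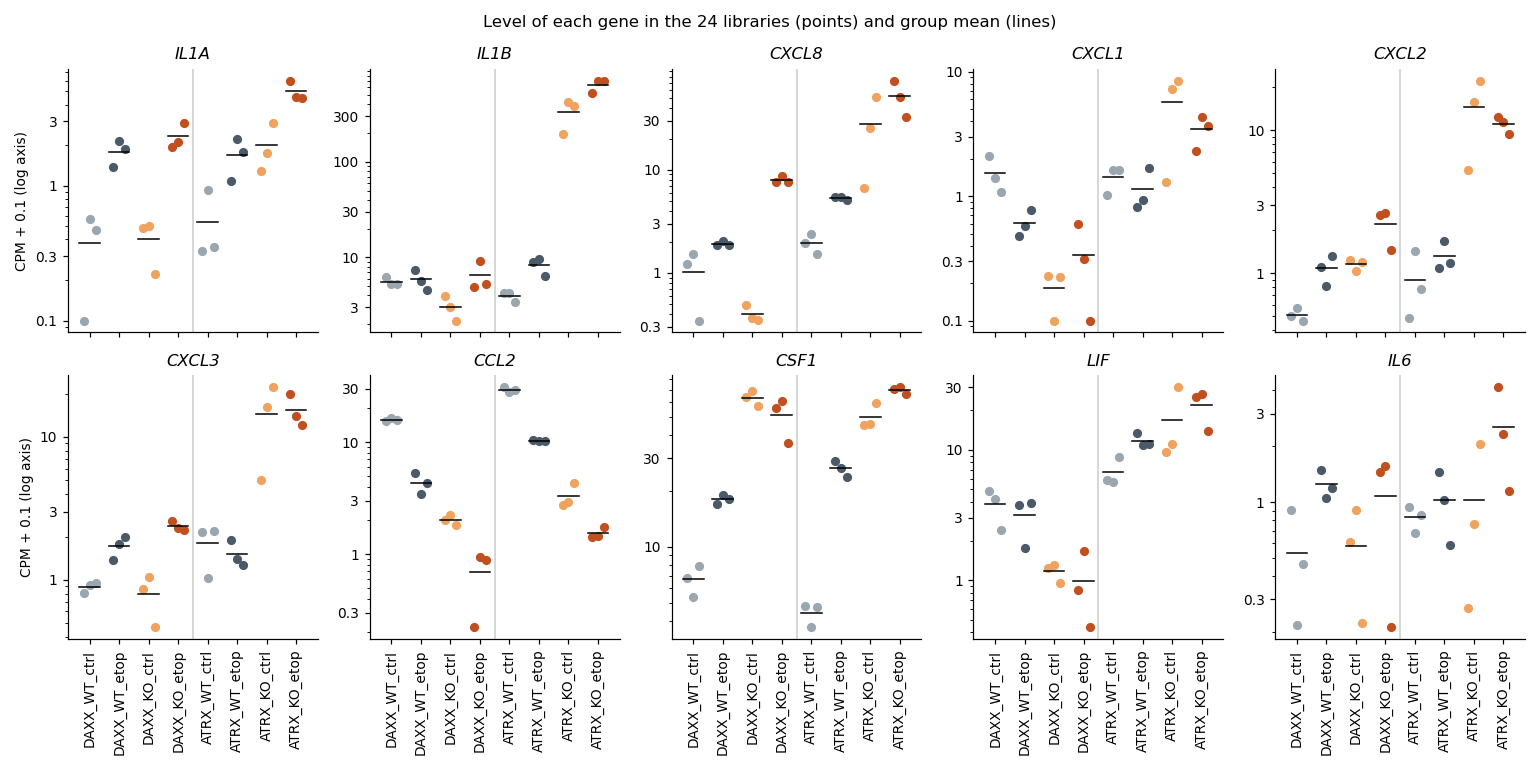
Level of each of the 10 genes in the 24 libraries, as CPM plus 0.1 on a log axis, with points for libraries and lines for the group means; grey marks WT and orange KO cells, darker with etoposide. IL1B, CXCL8, CXCL2 and CXCL3 are highest in ATRX_KO cells, CCL2 is highest in WT control cells and CSF1 is lowest in them.

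IL1B (ENSG00000125538) had the largest difference between the clones among the 10 genes. In the ATRX series its level was 4.15, 4.10 and 3.28 CPM in the WT control libraries and 194, 421 and 383 CPM in those of ATRX_KO, an 86.4-fold increase (log2FC 6.43, SE 0.28, adjusted p 3.00e-11). The lowest ATRX_KO library was thus far above every WT library. Leaving out each of the 6 libraries in turn gave log2 fold changes of 6.23 to 6.71. In the DAXX series the level was 6.06, 5.16 and 5.14 CPM in WT and 3.82, 2.95 and 2.08 CPM in DAXX_KO, where it fell (log2FC −0.89, SE 0.29, adjusted p 0.0149). The groups did not overlap, but the difference was small and was no longer called without DAXX_WT control replicate 1 (log2 fold change −0.80, adjusted p 0.0561) or DAXX_KO control replicate 3 (−0.68, adjusted p 0.0833). It also missed the threshold in the model of 24 libraries (−0.89, adjusted p 0.0853) and with scaling by library totals alone (−0.71, adjusted p 0.0501), a scaling that shifts the median of all genes by 0.18 in this comparison. The knockout effect in DAXX_KO minus that in ATRX_KO was −7.32 on the log2 scale (SE 0.51, adjusted p 1.77e-11). Over the 8 groups the 2 ATRX_KO groups came first and did not overlap each other, and the 3 groups ranked behind them overlapped their next neighbour.

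IL1A (ENSG00000115008) lies beside IL1B on chromosome 2 (GRCh37, chr2:113531502-113542070 and chr2:113587328-113594393, both on the minus strand) and encodes the form of interleukin-1 that is active without cleavage. It was barely detected in control WT cells, with 3, 10 and 3 counts in the ATRX series and 0, 4 and 3 in the DAXX series. In ATRX_KO control libraries it had 14, 20 and 36 counts, which was higher than in WT (log2FC 2.10, SE 0.49, adjusted p 0.00232). One WT library carried much of the WT signal, and without ATRX_WT control replicate 2 the log2 fold change was 2.93, adjusted p 0.000745. In DAXX_KO it had 3, 3 and 1 counts (log2FC 0.16, SE 0.82, adjusted p 0.886), which did not pass the test. The difference in knockout effect between the clones did not pass for IL1A (−1.93, SE 1.03, adjusted p 0.156). It was called without DAXX_WT control replicate 1 (−2.57, adjusted p 0.0402) and without ATRX_WT control replicate 2 (−2.77, adjusted p 0.0481).

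Of 8 tested genes that process, release or antagonize interleukin-1, 4 were higher and 1 was lower in ATRX_KO control cells (median 0.25), and 2 were higher and 3 lower in DAXX_KO (median −0.20). Over all genes 20.8% were higher and 21% lower in ATRX_KO, and 26.7% higher and 26.6% lower in DAXX_KO. IL1RN, the interleukin-1 receptor antagonist, was at the detection limit in WT, with 0, 0 and 5 counts, and had 39, 98 and 142 counts in ATRX_KO (log2FC 5.70, SE 0.62, adjusted p 1.18e-06). CASP1, the protease that cleaves the IL1B precursor, rose from 3.12 to 8.42 CPM (log2FC 1.43, SE 0.18, adjusted p 7.02e-06). CASP4, an inflammatory caspase, rose from 15.8 to 40.99 CPM (log2FC 1.38, SE 0.12, adjusted p 1.03e-07). In DAXX_KO the largest changes past the test at 5 CPM or more were in the calpain genes CAPN1 (log2FC 0.59, SE 0.08, adjusted p 3.44e-06) and CAPN2 (log2FC −0.71, SE 0.06, adjusted p 2.67e-09) and in the protease inhibitor gene SERPINB1 (log2FC 0.73, SE 0.10, adjusted p 6.98e-06). The receptor gene IL1R1 was at 4.90 to 6.40 CPM in control cells of the ATRX series and was not called in either clone. Its partner IL1RAP rose in DAXX_KO (log2FC 0.75, SE 0.21, adjusted p 0.00606).

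The CXC chemokine genes lie within 358.7 kb on chromosome 4 (GRCh37). CXCL8 (ENSG00000169429) lies at chr4:74606236-74609433 and CXCL1 (ENSG00000163739) at chr4:74735110-74737025 on the plus strand. CXCL3 (ENSG00000163734) lies at chr4:74902306-74904524 and CXCL2 (ENSG00000081041) at chr4:74962757-74964913 on the minus strand. Their promoters share the word GGAATTTCC, which is part of a binding motif of NF-κB. The stretch from 120 to 41 bases before the start of each gene is shown because it holds this word in all 4 genes (RefSeq, GRCh38.p14, chromosome 4, gene strand 5′ to 3′, the word in capitals). The positions are chr4:73740449-73740528 for CXCL8 and chr4:73869273-73869352 for CXCL1, both on the plus strand. They are chr4:74099236-74099315 for CXCL2 and chr4:74038730-74038809 for CXCL3, both on the minus strand.
CXCL8: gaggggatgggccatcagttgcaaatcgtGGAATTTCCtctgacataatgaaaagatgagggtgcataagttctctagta
CXCL1: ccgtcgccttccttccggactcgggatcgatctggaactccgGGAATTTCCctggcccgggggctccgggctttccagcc
CXCL2: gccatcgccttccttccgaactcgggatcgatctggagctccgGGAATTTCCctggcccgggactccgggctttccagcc
CXCL3: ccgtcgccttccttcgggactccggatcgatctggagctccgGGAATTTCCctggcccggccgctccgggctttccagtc
The word begins 91 bases before the start of CXCL8, 78 before those of CXCL1 and CXCL3, and 77 before that of CXCL2. Searched on both strands of whole promoter entries, which are longer than the stretch shown, it was found in 0.461% of 35116 RefSeq promoters. Around the word, CXCL1 and CXCL3 were identical at 92.1% of 89 positions, CXCL1 and CXCL2 at 75.3%, and CXCL8 and CXCL1 at 32.6%. Positions were compared without gaps and include the shared word on which the sequences were aligned, which raises each value. After the word CXCL2 lacks a base that CXCL1 has, so its later letters are compared out of step. The lower value of CXCL2 is therefore not a measure of its likeness to CXCL1. The longer consensus motif of NF-κB, present in 5.91% of the promoters, was found in CXCL1, CXCL2, CXCL3 and IL6 and not in the listed promoters of CXCL8, IL1A and IL1B. Promoters of CCL2, CSF1 and LIF were not analysed here. A match describes the letters of the window and was not tested for binding.

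All 4 CXC chemokine genes rose in ATRX_KO control cells. CXCL8 was at 1.84, 2.26 and 1.43 CPM in WT and 6.49, 25.5 and 51.03 CPM in ATRX_KO (log2FC 3.91, SE 0.59, adjusted p 4.50e-05). CXCL2 was at 0.384, 1.34 and 0.673 CPM in WT and 5.21, 15.6 and 22.2 in ATRX_KO (log2FC 4.17, SE 0.48, adjusted p 2.24e-06). CXCL3 was at 2.07, 0.921 and 2.10 CPM in WT and 4.87, 16.1 and 22.2 in ATRX_KO (log2FC 3.08, SE 0.44, adjusted p 2.82e-05). For these 3 genes every ATRX_KO library was above every WT library, although within ATRX_KO replicate 3 exceeded replicate 1 by 4.26 times for CXCL2, 4.56 times for CXCL3 and 7.86 times for CXCL8. CXCL1 was at 0.922, 1.51 and 1.51 CPM in WT and 1.20, 7.12 and 8.39 in ATRX_KO (log2FC 2.09, SE 0.51, adjusted p 0.00348). Here replicate 1 of ATRX_KO lay within the WT range. With each library left out in turn, the log2 fold change was 3.12 to 4.38 for CXCL8, 3.72 to 4.76 for CXCL2, 2.62 to 3.49 for CXCL3 and 1.67 to 2.57 for CXCL1, and all 4 stayed called. The lowest CXCL8 value was without ATRX_KO control replicate 3 and the highest CXCL2 value without ATRX_WT control replicate 2.

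In DAXX_KO control cells the CXC chemokine genes did not move together. CXCL8 had 11, 12 and 2 counts in WT and 3, 2 and 2 in DAXX_KO and was lower (log2FC −1.60, SE 0.57, adjusted p 0.0239). WT replicate 3 overlapped the DAXX_KO libraries. Leaving out WT replicate 1 (−1.44, adjusted p 0.0778), WT replicate 2 (−1.21, adjusted p 0.122), KO replicate 2 (−1.53, adjusted p 0.0631) or KO replicate 3 (−1.47, adjusted p 0.0740) ended the call, as did the model of 24 libraries (−1.61, adjusted p 0.343). CXCL2 had 4, 4 and 3 counts in WT and 9, 7 and 9 in DAXX_KO and was higher (log2FC 1.33, SE 0.50, adjusted p 0.0295). This call was kept in 1 of 6 fits that left out a library, without DAXX_KO control replicate 2, with adjusted p values of 0.0442 to 0.0795 over the 6. It was lost with DESeq2 (1.33, adjusted p 0.0856), without the filter (1.31, adjusted p 0.103) and in the model of 24 libraries (1.34, adjusted p 0.122). CXCL3 had 7, 7 and 7 counts in WT and 6, 7 and 3 in DAXX_KO and did not pass the test (log2FC −0.20, SE 0.47, adjusted p 0.740). CXCL1, which the filter removed, had 20, 11 and 8 counts in WT and 1, 0 and 1 in DAXX_KO. The ratio of WT to KO was 17.2 after scaling by library size, with a 95% counting interval of 4.45 to 147.1 (exact binomial, counting error only). Without the filter its log2 fold change was −3.89 (SE 0.88, adjusted p 7.21e-05). Counts of 1, 0 and 1 are too low to measure the spread between DAXX_KO libraries, so this SE and adjusted p are not read as a test of replicates.

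The knockout effects on all 4 CXC genes were lower in DAXX_KO than in ATRX_KO. The difference on the log2 scale was −5.52 for CXCL8 (SE 1.41, adjusted p 0.00320), −5.99 for CXCL1 (SE 1.07, adjusted p 7.51e-05), −3.28 for CXCL3 (SE 0.83, adjusted p 0.00292) and −2.83 for CXCL2 (SE 0.93, adjusted p 0.0202). The CXCL1 difference rests on the same counts of 1, 0 and 1 in DAXX_KO, so its SE and adjusted p are likewise not read as a test of replicates. The CXCL2 difference was not called without DAXX_WT control replicate 1 (−2.86, adjusted p 0.0549) or 2 (−2.75, adjusted p 0.0639) and was larger without ATRX_WT control replicate 2 (−3.43, adjusted p 0.00808). That of CXCL8 was smaller without ATRX_KO control replicate 3 (−4.73, adjusted p 0.00127). Other genes within 1 Mb of CXCL8 differed by a median of 0.17 on the log2 scale in ATRX_KO (7 tested genes) and 0.44 in DAXX_KO. Those within 1 Mb of IL1B had medians of 0.27 (23 tested genes) and −0.22 (21 tested genes). In the last 500 bases of the transcripts, 3 of 426 words of 75 bases, the read length, were shared between CXCL1 and CXCL2, and none between any other pair of the 4 CXC genes. The receptor CXCR1 had mean levels of 0 to 0.129 CPM over the 8 groups, and CXCR2 was at 0.255 to 0.689 CPM in control cells. With etoposide CXCR2 was at 1.45 to 4.97 CPM. It was called higher than in control cells for WT and KO of both series (log2 fold changes 1.87 to 3.60, adjusted p at most 0.0179).

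CCL2 (ENSG00000108691, chr17:32582293-32584227, plus strand) fell in both clones, against the direction of the other chemokines in ATRX_KO. Its level was 30.9, 27.8 and 29.3 CPM in WT and 2.65, 2.81 and 4.23 CPM in ATRX_KO, an 8.98-fold decrease (log2FC −3.17, SE 0.16, adjusted p 1.34e-10). In the DAXX series it was 15.2, 16.4 and 15.5 CPM in WT and 1.91, 2.15 and 1.71 CPM in DAXX_KO, an 8.14-fold decrease (log2FC −3.02, SE 0.25, adjusted p 6.89e-09). The WT and KO libraries did not overlap in either series, and the replicate libraries lay close to each other. The difference between the knockout effects did not pass the test (difference 0.14 on the log2 scale, SE 0.31, adjusted p 0.776). WT control cells of the ATRX series had a higher level than those of the DAXX series (log2FC 0.90, SE 0.16, adjusted p 0.000430). CCL2 was the 1 gene of the 10 called in that comparison, which called 13.2% of all genes. Genes within 1 Mb of CCL2 had median log2 fold changes of 0.20 in ATRX_KO (9 tested genes) and −0.21 in DAXX_KO (8 tested genes). Its receptor CCR2 was listed at 0 in all control libraries. With etoposide it had 2, 10 and 3 counts in ATRX_KO and 0, 0 and 2 in ATRX_WT.

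CSF1 (ENSG00000184371, chr1:110452864-110473614, plus strand) rose in both clones. It was at 6.66, 5.28 and 7.83 CPM in WT and 64.03, 69.2 and 56.9 CPM in DAXX_KO, a 9.62-fold increase (log2FC 3.27, SE 0.18, adjusted p 1.58e-11). In the ATRX series it was at 4.69, 3.60 and 4.63 CPM in WT and 45.1, 46.01 and 59.5 CPM in ATRX_KO, an 11.7-fold increase (log2FC 3.54, SE 0.14, adjusted p 8.99e-12). Each KO library was several times above the highest WT library of its series. The study had singled out CSF1 on these same samples, so its direction here is not independent evidence. The difference between the knockout effects did not pass the test ( −0.27 on the log2 scale, SE 0.26, adjusted p 0.464). CSF1R, its receptor, was at 3.33 ± 0.596 CPM in WT and 7.91 ± 0.458 in DAXX_KO, where it rose (log2FC 1.24, SE 0.22, adjusted p 7.39e-05). It was at 3.61 ± 0.456 and 2.63 ± 0.350 CPM in the ATRX series (log2FC −0.45, SE 0.28, adjusted p 0.214). Genes within 1 Mb of CSF1 differed by a median of 0.52 on the log2 scale in ATRX_KO, where 19 of 31 tested were higher and 1 lower (20.8% and 21% over all genes), and of 0.06 in DAXX_KO.

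LIF (ENSG00000128342, chr22:30636442-30642748, minus strand) moved in opposite directions in the clones. It was at 4.75, 4.10 and 2.32 CPM in WT and 1.15, 1.21 and 0.856 CPM in DAXX_KO, which was lower in each library (log2FC −1.80, SE 0.45, adjusted p 0.00216). The study had named LIF in DAXX_KO in a separate analysis that joined RNA-seq with p53 binding, so this direction is not independent evidence either. In the ATRX series it was at 5.76, 5.61 and 8.67 CPM in WT and 9.57, 10.9 and 30.1 CPM in ATRX_KO (log2FC 1.35, SE 0.36, adjusted p 0.00664). The increase rested on ATRX_KO control replicate 3, without which the log2 fold change was 0.63, adjusted p 0.0649. The knockout effect in DAXX_KO minus that in ATRX_KO was −3.15 (SE 0.67, adjusted p 0.000547), and it was smaller without that library (−2.43, adjusted p 0.000706). Its receptor gene LIFR fell in ATRX_KO from 37.2 ± 3.27 to 16.1 ± 1.13 CPM (log2FC −1.20, SE 0.10, adjusted p 7.56e-08). It was at 34.95 ± 1.20 and 41.1 ± 3.62 CPM in WT and DAXX_KO (log2FC 0.24, SE 0.10, adjusted p 0.0598). Around LIF, 22 of 34 tested genes within 1 Mb were lower and none higher in ATRX_KO (median −0.56), and 19 of 33 were lower and 1 higher in DAXX_KO (median −0.67). Over all genes, 21% were lower in ATRX_KO and 26.6% in DAXX_KO.

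IL6 (ENSG00000136244, chr7:22765503-22771621, plus strand) was near the detection limit in all control groups. It had 11, 7 and 9 counts in ATRX_WT and 2, 8 and 25 in ATRX_KO control libraries (log2FC 0.37, SE 0.67, adjusted p 0.699). It had 8, 1 and 3 counts in DAXX_WT and 4, 6 and 1 in DAXX_KO (log2FC 0.08, SE 0.84, adjusted p 0.950). It was not called in any of the 13 comparisons at this depth. IL6 overlaps IL6-AS1 and STEAP1B on the opposite strand, and LIF overlaps LIF-AS1 and LIF-AS2. The sources used here do not give the strand setting of the counting, so reads of these pairs cannot be told apart. IL6ST was at 119.5 and 139 CPM in WT control cells and fell in DAXX_KO (log2FC −0.53, SE 0.09, adjusted p 7.75e-05). IL6R rose in ATRX_KO (log2FC 0.64, SE 0.12, adjusted p 0.000502). The whole receptor list of 12 genes had 8 tested, of which 2 were higher and 1 lower in DAXX_KO (median 0.39) and 1 was higher and 1 lower in ATRX_KO (median −0.16). These counts were at or below the shares over all genes, 26.7% higher and 26.6% lower in DAXX_KO and 20.8% and 21% in ATRX_KO.

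**Figure D2:**
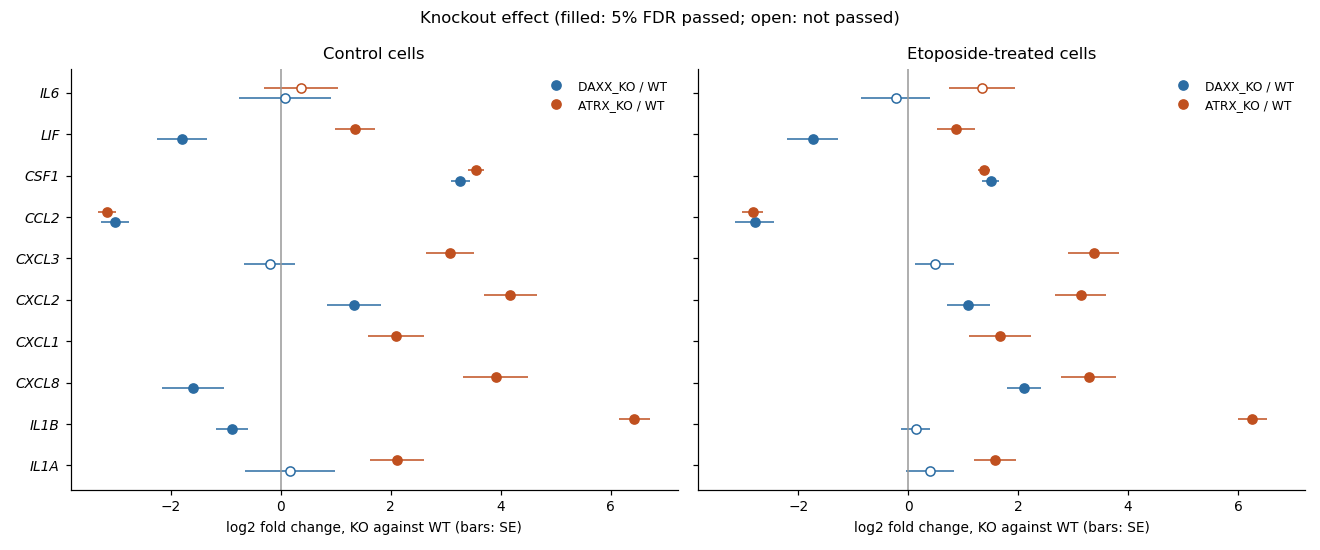
Log2 fold change of KO against WT cells with its SE, for control cells (left) and etoposide-treated cells (right), in blue for DAXX_KO and orange for ATRX_KO; filled points passed an FDR of 5%, and CXCL1 was not tested in the DAXX series. IL1B stands at 6.43 and 6.26 in ATRX_KO, CCL2 is below 0 and CSF1 above 0 in both clones and both conditions.

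In the WT cells of both series etoposide raised IL1A and CSF1 and lowered CCL2. Altogether 5 of 9 tested genes were higher and 1 lower in the DAXX series, where 29.6% of all genes were higher and 30.6% lower. In the ATRX series 3 of 10 were higher and 1 lower, where 31.7% of all genes were higher and 29.8% lower. CSF1 went to 16.8, 18.9 and 17.9 CPM in the DAXX series (log2FC 1.46, SE 0.20, adjusted p 3.40e-06). It went to 29.04, 26.6 and 23.7 CPM in the ATRX series (log2FC 2.64, SE 0.15, adjusted p 1.23e-10). The response was larger in the ATRX series (difference 1.17 on the log2 scale, SE 0.28, adjusted p 0.0184), the 1 gene of the 10 in a comparison that called 3.15% of all genes. This difference was not called without DAXX_WT control replicate 1 (1.12, adjusted p 0.0554) or 3 (1.01, adjusted p 0.0847) or ATRX_WT control replicate 2 (1.03, adjusted p 0.0618).

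The summed myeloid markers were also higher with etoposide than in control cells, as given above, among them FCER1G (0.626 to 1.61 CPM in DAXX_WT and 0.551 to 1.43 CPM in ATRX_WT) and ITGAM (0.0281 to 1.55 CPM in ATRX_WT). Of the list, 1 of 1 tested gene was called higher in DAXX_WT and 2 of 3 in ATRX_WT. The highest count of any of the 10 genes was 45, in DAXX_KO with etoposide, and AIF1, C1QA, C1QB, SPI1 and TYROBP had 3 counts or fewer in every library. Of the 8 mesenchymal markers, none was higher and 4 were lower in DAXX_WT (median −0.24), and 1 was higher and 3 lower in ATRX_WT (median −0.26). Among them VIM and CD44 fell in both series (−1.13 and −1.47, and −1.48 and −1.32, on the log2 scale, adjusted p at most 2.18e-07). The part of these shifts in the cytokine results was not tested.

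CCL2 fell with etoposide to 5.19, 3.36 and 4.21 CPM in DAXX_WT (log2FC −1.87, SE 0.22, adjusted p 5.59e-07) and to 10.4, 10.04 and 10.1 CPM in ATRX_WT (log2FC −1.5, SE 0.14, adjusted p 8.47e-08). The etoposide and control libraries did not overlap in either series. IL1A rose to 10, 17 and 13 counts in DAXX_WT (log2FC 2.62, SE 0.61, adjusted p 0.000951) and 11, 23 and 17 in ATRX_WT (log2FC 1.87, SE 0.51, adjusted p 0.00432). Its low control counts make the size uncertain. Without DAXX_WT control replicate 1 or 2 it was 2.00, adjusted p 0.00617 or 3.24, adjusted p 0.00141 on the log2 scale, and without ATRX_WT control replicate 2 it was 2.69, adjusted p 0.000951. IL1B was at 7.35, 5.51 and 4.48 CPM in DAXX_WT with etoposide (log2FC 0.10, SE 0.27, adjusted p 0.769). It rose to 8.81, 9.48 and 6.28 CPM in ATRX_WT (log2FC 1.11, SE 0.35, adjusted p 0.0102), a difference between the series that did not pass (1.01, SE 0.50, adjusted p 0.304).

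CXCL8, CXCL2 and CXCL3 were called higher with etoposide in DAXX_WT cells, each close to the threshold. CXCL8 had 14, 16 and 13 counts (log2FC 0.97, SE 0.41, adjusted p 0.0469). CXCL2 had 8, 6 and 9 counts (log2FC 1.23, SE 0.50, adjusted p 0.0417). CXCL3 had 10, 14 and 14 (log2FC 1.03, SE 0.41, adjusted p 0.0354). Each call was kept in 1 of the 6 fits that left out a library, namely without DAXX_WT control replicate 2 for CXCL8, etoposide replicate 2 for CXCL2 and etoposide replicate 1 for CXCL3. Over the 6 fits the adjusted p was 0.0176 to 0.201 for CXCL8, 0.0377 to 0.138 for CXCL2 and 0.0368 to 0.119 for CXCL3. All 3 calls were also lost with DESeq2 (adjusted p 0.0547, 0.0900 and 0.0797 in the same order), without the filter (0.0716, 0.128 and 0.112) and in the model of 24 libraries (0.381, 0.154 and 0.156). The CXCL8 call was also lost in a fit of these 2 groups (adjusted p 0.0589).

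In ATRX_WT cells, CXCL8 went from 1.84, 2.26 and 1.43 to 5.40, 5.30 and 5.002 CPM with no overlap of the libraries and did not pass in the fit of 4 groups (log2FC 1.52, SE 0.71, adjusted p 0.0746). It passed when only these 2 groups were fitted (1.52, adjusted p 4.92e-05), with DESeq2 (1.52, adjusted p 0.0324), without the filter (1.48, adjusted p 2.65e-11) and in the model of 24 libraries (1.5, adjusted p 0.0241). Adjusted p values without the filter were far smaller for some genes and are not to be read as measuring the spread between libraries. LIF went from 5.76, 5.61 and 8.67 to 13.2, 10.8 and 10.98 CPM, also with no overlap (log2FC 0.83, SE 0.38, adjusted p 0.0665), and passed in the fit of 2 groups (0.83, adjusted p 0.000771) and under 3 other alternatives. CXCL2 and CXCL3 had log2 fold changes of 0.64 and −0.23 there, with adjusted p values of 0.416 and 0.757, and CXCL1 was at 8, 9 and 16 counts (log2FC −0.32, SE 0.63, adjusted p 0.683). In DAXX_WT, LIF was at 3.67, 1.68 and 3.80 CPM with etoposide (log2FC −0.29, SE 0.39, adjusted p 0.541) and CXCL1 at 3, 4 and 5 counts, with no test. IL6 had 11, 8 and 8 counts with etoposide in DAXX_WT (log2FC 1.35, SE 0.71, adjusted p 0.112) and 15, 10 and 5 in ATRX_WT (log2FC 0.36, SE 0.69, adjusted p 0.665).

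In DAXX_KO cells, etoposide raised CXCL8 from 3, 2 and 2 to 61, 82 and 67 counts, a ratio of 26.6 with a 95% counting interval of 12.7 to 67.03 (log2FC 4.67, SE 0.43, adjusted p 2.13e-08). The DAXX_KO etoposide level of 7.91 ± 0.630 CPM was above that of DAXX_WT with etoposide, 1.82 ± 0.0855 CPM, whereas in control cells DAXX_KO had been lower. The response minus that of WT was 3.70 on the log2 scale (SE 0.65, adjusted p 0.000674), and it stayed called in all 12 fits that left out a library (3.31 to 4.12). In a model of all 24 libraries the same difference did not pass (3.73, adjusted p 0.0976). Of the 9 tested genes, 5 were higher and 1 lower with etoposide in DAXX_KO, where 26.8% of all genes were higher and 27.8% lower. CXCL3 rose from 6, 7 and 3 to 20, 21 and 19 counts (log2FC 1.72, SE 0.40, adjusted p 0.00129). IL1A rose from 3, 3 and 1 to 15, 19 and 25 (log2FC 2.84, SE 0.58, adjusted p 0.000365) and IL1B from 3.82, 2.95 and 2.08 to 4.81, 9.06 and 5.19 CPM (log2FC 1.12, SE 0.29, adjusted p 0.00258). CXCL2 went from 9, 7 and 9 to 20, 24 and 12 counts (log2FC 0.99, SE 0.39, adjusted p 0.0384). It stayed called in 1 of 6 fits that left out a library, without DAXX_KO etoposide replicate 3 (adjusted p 0.0192 to 0.138 over the 6). It was lost with DESeq2 (1.04, adjusted p 0.0966), without the filter (0.99, adjusted p 0.131), with library totals (0.89, adjusted p 0.0620) and in the model of 24 libraries (0.98, adjusted p 0.120). CCL2 fell further, to 1, 8 and 7 counts (log2FC −1.64, SE 0.41, adjusted p 0.00195). LIF was at 0.740, 1.58 and 0.339 CPM (log2FC −0.23, SE 0.54, adjusted p 0.742), IL6 at 11, 14 and 1 counts (log2FC 1.04, SE 0.73, adjusted p 0.242) and CXCL1 at 4, 2 and 0 counts, with no test.

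CSF1, already high in both clones, responded less to etoposide there than in WT. In DAXX_KO it was at 55.6, 61.1 and 36.3 CPM with etoposide (log2FC −0.30, SE 0.14, adjusted p 0.0689), a small difference that did not pass. It did pass without control replicate 3 (−0.38, adjusted p 0.0444) or etoposide replicate 2 (−0.46, adjusted p 0.00878), with library totals (−0.41, adjusted p 0.0195) and without the filter (−0.31, adjusted p 0.0115). In ATRX_KO it rose to 71.00, 72.4 and 66.5 CPM (log2FC 0.47, SE 0.11, adjusted p 0.00181). The response minus that of WT was −1.76 (log2) in DAXX_KO (SE 0.24, adjusted p 6.25e-05) and −2.17 in ATRX_KO (SE 0.19, adjusted p 2.29e-06). CSF1 was lower in each WT library with etoposide than in any KO library, with KO against WT log2 fold changes of 1.5 and 1.37 among etoposide-treated cells. CXCL8 and CSF1 were the 2 genes called for a different response in DAXX_KO and CSF1 the 1 gene called in ATRX_KO, by tests that called 14.2% and 16% of all genes.

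In ATRX_KO cells etoposide further raised both interleukin-1 genes. IL1B went from 194, 421 and 383 to 523, 709 and 697 CPM with no overlap (log2FC 0.94, SE 0.20, adjusted p 0.000789), and IL1A from 14, 20 and 36 to 67, 62 and 58 counts (log2FC 1.35, SE 0.37, adjusted p 0.00562). CCL2 fell to 1.33, 1.36 and 1.65 CPM (log2FC −1.17, SE 0.22, adjusted p 0.000244). With these and CSF1, 3 of 10 genes were higher and 1 lower, where 24.3% of all genes were higher and 25.2% lower. The CXC genes did not pass. CXCL8 was at 73.2, 50.7 and 32.3 CPM (log2FC 0.89, SE 0.41, adjusted p 0.0845) and CXCL3 at 19.8, 13.98 and 12.1 (log2FC 0.07, SE 0.35, adjusted p 0.894). CXCL2 was at 12.4, 11.3 and 9.28 (log2FC −0.40, SE 0.34, adjusted p 0.357) and CXCL1 at 2.21, 4.23 and 3.59 (log2FC −0.74, SE 0.46, adjusted p 0.198). LIF was at 25.1, 26.6 and 13.7 CPM (log2FC 0.35, SE 0.33, adjusted p 0.401) and IL6 at 46, 31 and 14 counts (log2FC 1.34, SE 0.59, adjusted p 0.0714). Which of these passed depended on single libraries and on the filter. Without control replicate 3, CXCL8 (1.68, adjusted p 0.00136), LIF (1.07, adjusted p 0.00172) and IL6 (2.48, adjusted p 0.00567) were called higher. Without control replicate 1, CXCL1 (−1.22, adjusted p 0.00389) and CXCL2 (−0.80, adjusted p 0.00963) were called lower. Leaving out etoposide replicate 3 also made CXCL8 (1.14, adjusted p 0.0350) and IL6 (1.70, adjusted p 0.0266) pass. Without the filter CXCL8 (0.86, adjusted p 4.64e-11), IL6 (1.30, adjusted p 0.0109) and CXCL1 (−0.77, adjusted p 0.0253) passed, and CXCL8 also did in the model of 24 libraries (0.90, adjusted p 0.0321). For these genes the control and etoposide libraries overlapped, and the adjusted p values without the filter are not to be read as measuring the spread between libraries.

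**Figure D3:**
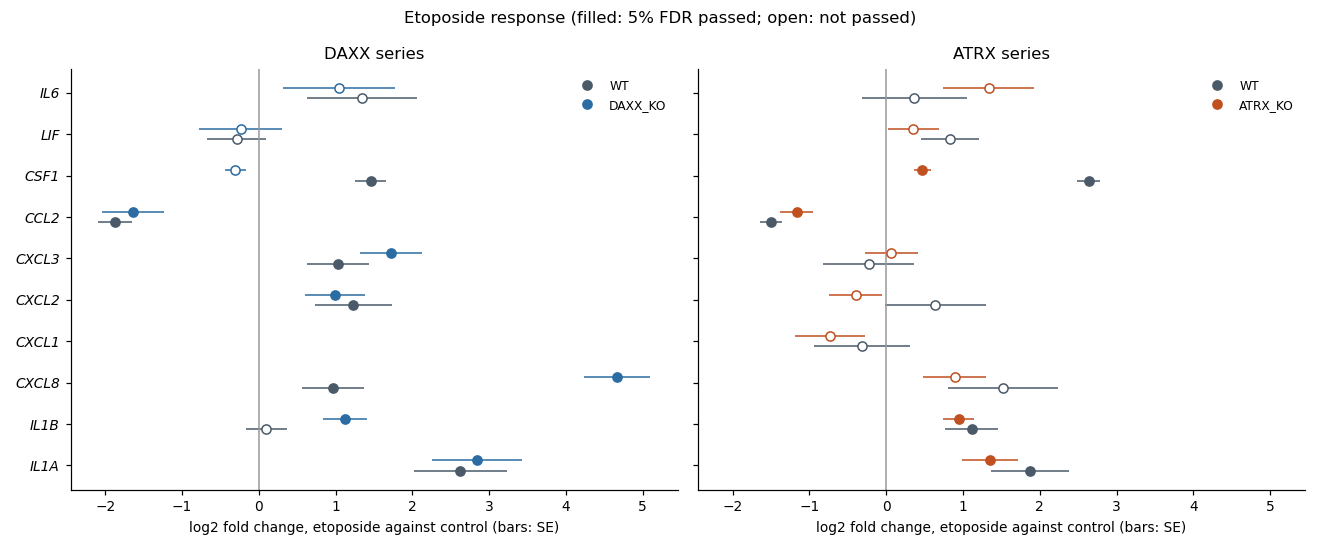
Log2 fold change of etoposide against control with its SE for the DAXX series (left) and the ATRX series (right), in grey for WT and in colour for KO cells; filled points passed an FDR of 5%, and CXCL1 was not tested in the DAXX series. CXCL8 in DAXX_KO stands at 4.67, and CSF1 is further right in WT than in KO cells.

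Among etoposide-treated cells, 8 of 10 genes were higher and 1 was lower in ATRX_KO than in WT, where 23% of all genes were higher and 22.9% lower. IL1B remained 76.7-fold higher (log2FC 6.26, SE 0.27, adjusted p 2.65e-11). CXCL8 was 9.71-fold higher (log2FC 3.28, SE 0.50, adjusted p 4.55e-05) and CCL2 was 7.12-fold lower (log2FC −2.83, SE 0.19, adjusted p 4.47e-09). CXCL3 (log2FC 3.37, SE 0.47, adjusted p 1.60e-05), CXCL2 (log2FC 3.14, SE 0.46, adjusted p 3.17e-05), IL1A (log2FC 1.58, SE 0.38, adjusted p 0.00261) and CSF1 (log2FC 1.37, SE 0.11, adjusted p 5.49e-08) were also higher. The calls for LIF (log2FC 0.87, SE 0.34, adjusted p 0.0472) and CXCL1 (log2FC 1.67, SE 0.56, adjusted p 0.0222) were close to the threshold. They were kept in 1 and 3 of 6 fits that left out a library, with adjusted p values of 0.0127 to 0.173 and 0.0152 to 0.0824. For LIF the call was kept without ATRX_KO etoposide replicate 3 and lost without any other and with DESeq2 (0.88, adjusted p 0.115). For CXCL1 it was lost without ATRX_WT etoposide replicates 1 and 2 and ATRX_KO etoposide replicate 2. IL6 was at 46, 31 and 14 counts against 15, 10 and 5 in WT (log2FC 1.34, SE 0.60, adjusted p 0.0812). It passed without ATRX_KO etoposide replicate 3 (1.71, adjusted p 0.0308), without the filter (1.35, adjusted p 0.0110) and in the fit of 2 groups (1.34, adjusted p 0.0414).

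In DAXX_KO cells with etoposide, 3 of 9 genes were higher and 2 lower, where 27.9% of all genes were higher and 25.2% lower. CXCL8 (log2FC 2.10, SE 0.32, adjusted p 1.49e-05), CSF1 (log2FC 1.5, SE 0.16, adjusted p 1.49e-07) and CXCL2 (log2FC 1.09, SE 0.39, adjusted p 0.0256) were higher. CCL2 (log2FC −2.79, SE 0.35, adjusted p 1.81e-06) and LIF (log2FC −1.74, SE 0.47, adjusted p 0.00380) were lower. CXCL1 had 6 counts in DAXX_KO against 12 in WT over the 3 libraries, a ratio of WT to KO of 2.24 with a counting interval of 0.779 to 7.28. IL1B (log2FC 0.14, SE 0.26, adjusted p 0.693), IL1A (log2FC 0.39, SE 0.44, adjusted p 0.484), CXCL3 (log2FC 0.48, SE 0.35, adjusted p 0.265) and IL6 (log2FC −0.23, SE 0.63, adjusted p 0.786) did not pass. The CXCL2 call was kept in 2 of 6 fits that left out a library, without DAXX_WT etoposide replicate 3 or DAXX_KO etoposide replicate 3 (adjusted p 0.0128 to 0.111 over the 6). It was lost with DESeq2 (1.08, adjusted p 0.0887), without the filter (1.08, adjusted p 0.0968) and in the model of 24 libraries (1.11, adjusted p 0.0867). Without DAXX_KO etoposide replicate 2 the LIF difference was larger (−2.48, adjusted p 0.000750).

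Genes that act around these factors were described by lists, whose medians are to be set beside the median of 0.02 over all genes in either knockout. Their counts are to be set beside 20.8% of all genes higher and 21% lower in ATRX_KO, and 26.7% higher and 26.6% lower in DAXX_KO. Some of the list counts lie near these shares. Of NF-κB feedback and target genes, 10 of 16 tested were higher and 4 lower in ATRX_KO control cells (median log2 fold change 0.64), and 6 of 15 were higher and 6 lower in DAXX_KO (median −0.20). In ATRX_KO the prostaglandin synthase gene PTGS2 went from 1.23 ± 0.318 to 50.9 ± 27.1 CPM (log2FC 5.38, SE 0.43, adjusted p 3.45e-08). The NF-κB inhibitor gene TNFAIP3 went from 2.23 ± 0.628 to 14.9 ± 5.41 CPM (log2FC 2.74, SE 0.26, adjusted p 2.27e-07) and the stress-response gene IER3 from 259 to 887 CPM (log2FC 1.78, SE 0.12, adjusted p 2.86e-09). The PTGS2 effect in DAXX_KO minus that in ATRX_KO was −5.91 (adjusted p 2.59e-05). In DAXX_KO the inhibitor of apoptosis genes BIRC3 (log2FC −2.52, SE 0.30, adjusted p 7.07e-07) and BIRC2 (log2FC −1.07, SE 0.07, adjusted p 1.17e-10) and the pentraxin gene PTX3 (log2FC −0.80, SE 0.17, adjusted p 0.000453) fell. Of NF-κB subunits and kinases, 5 of 15 were higher and 2 lower in ATRX_KO (median 0.09), and 8 of 15 were higher and 1 lower in DAXX_KO (median 0.27). RELB, a subunit of the noncanonical pathway, rose in both (log2 fold changes 2.08 and 1.32, adjusted p 8.59e-08 and 1.73e-05). NFKB2 (log2FC 1.17, SE 0.15, adjusted p 8.93e-06) and its upstream kinase gene MAP3K14 (log2FC 1.09, SE 0.20, adjusted p 0.000338) rose in ATRX_KO. NFKB1 (log2FC 0.94, SE 0.12, adjusted p 3.15e-06) and the adaptor gene TRAF2 (log2FC 1.25, SE 0.21, adjusted p 5.00e-05) rose in DAXX_KO.

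Of 19 other cytokine and chemokine genes tested, 8 were higher and 2 lower in ATRX_KO (median 0.90), and of 16 tested, 4 were higher and 6 lower in DAXX_KO (median −0.37). The shares over all genes were 20.8% and 21% in ATRX_KO and 26.7% and 26.6% in DAXX_KO. CSF3, the granulocyte growth factor, went from 3.53, 4.60 and 4.88 CPM in WT to 159, 568 and 497 CPM in ATRX_KO (log2FC 6.56, SE 0.39, adjusted p 9.98e-10), with replicate 1 again the lowest. It went from 4.04, 4.34 and 3.91 to 2.42, 2.55 and 2.94 CPM in DAXX_KO (log2FC −0.63, SE 0.25, adjusted p 0.0376). GDF15, a stress cytokine, rose in both clones (log2 fold changes 2.72 and 2.03, adjusted p 1.07e-12 and 1.29e-13). TSLP, an epithelial cytokine, fell in both (−2.44 and −1.32, adjusted p 7.29e-09 and 1.81e-06). IL11, an IL6ST ligand, fell in DAXX_KO (log2FC −0.89, SE 0.08, adjusted p 1.94e-08). With etoposide, 9 of 16 of these genes were higher and 3 lower in DAXX_WT and 9 of 19 higher and 1 lower in ATRX_WT, against 29.6% and 30.6% of all genes in DAXX_WT and 31.7% and 29.8% in ATRX_WT. GDF15 rose in both (8.66 and 8.39 on the log2 scale, adjusted p 8.38e-24 and 3.03e-18). CCL26, an eosinophil chemokine, rose in ATRX_WT (log2FC 3.27, SE 0.31, adjusted p 9.92e-08).

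Of C/EBP, AP-1 and STAT3 regulators, 9 of 19 tested were higher and 6 lower in ATRX_KO (median 0.26), and 7 of 18 were higher and 7 lower in DAXX_KO (median −0.05). For these and the mRNA decay factors below, the shares over all genes were 20.8% and 21% in ATRX_KO and 26.7% and 26.6% in DAXX_KO. CEBPB, a transcription factor of inflammatory genes, rose from 57.3 to 261 CPM in ATRX_KO (log2FC 2.19, SE 0.12, adjusted p 3.88e-10), and the effect in DAXX_KO minus that in ATRX_KO was −1.45 (adjusted p 8.04e-08). The chromatin protein gene HMGA2 rose in ATRX_KO (log2FC 1.70, SE 0.08, adjusted p 3.16e-11). CEBPD (log2FC 1.46, SE 0.18, adjusted p 1.44e-06) and JUND (log2FC 1.34, SE 0.09, adjusted p 1.93e-10) rose in DAXX_KO. SOCS3, a STAT3-induced inhibitor of signalling through IL6ST, fell in both (log2 fold changes −1.46 and −1.42, adjusted p 3.63e-09 and 4.93e-11). Factors that control the decay of AU-rich mRNAs, a group that includes many cytokine mRNAs, were higher for 2 and lower for 3 of 12 in ATRX_KO (median −0.00), and higher for 1 and lower for 6 of 12 in DAXX_KO (median −0.21). ZC3H12A, a ribonuclease that degrades cytokine mRNAs, rose in ATRX_KO (log2FC 2.30, SE 0.30, adjusted p 1.09e-05), with ZFP36L1 (log2FC 0.67, SE 0.08, adjusted p 7.15e-06), and ZFP36L2 fell (log2FC −0.5, SE 0.12, adjusted p 0.00211). In DAXX_KO, KHSRP (log2FC −0.62, SE 0.07, adjusted p 6.34e-07), ZFP36L1 (log2FC −0.49, SE 0.07, adjusted p 9.21e-06) and TIAL1 (log2FC −0.48, SE 0.09, adjusted p 0.000260) fell.

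Among the 8 mesenchymal markers, 1 was higher and 5 lower in ATRX_KO and 3 were higher and 4 lower in DAXX_KO. The glycoprotein gene CHI3L1 rose in ATRX_KO (log2FC 1.78, SE 0.24, adjusted p 1.67e-05) and the caveolin gene CAV1 fell there (log2FC −1.38, SE 0.10, adjusted p 5.74e-09). The fibronectin gene FN1 fell in ATRX_KO (log2FC −1.22, SE 0.10, adjusted p 8.03e-08) and rose in DAXX_KO (log2FC 1.95, SE 0.07, adjusted p 7.72e-14). VIM (log2FC −0.64, SE 0.13, adjusted p 0.000250) and ANXA1 (log2FC −0.42, SE 0.06, adjusted p 1.34e-05) fell in DAXX_KO. Of the myeloid markers, FCER1G rose in ATRX_KO (log2FC 1.45, SE 0.47, adjusted p 0.0196). The 2 others tested there and the 1 tested in DAXX_KO did not pass, and no endothelial marker passed in either. The knockout counts of these lists are to be read against the 20.8% to 26.7% of all genes called in each direction.

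The etoposide counts of the lists are to be read against 29.6% of all genes higher and 30.6% lower in DAXX_WT, and 31.7% higher and 29.8% lower in ATRX_WT, and many of them lie near these shares. With etoposide, NF-κB targets were higher for 7 and lower for 6 of 15 in DAXX_WT, and 6 and 6 of 16 in ATRX_WT. PTGS2 rose in both series (2.28 and 3.41 on the log2 scale, adjusted p 5.19e-07 and 1.53e-05). The adaptor gene TRAF1 rose in DAXX_WT (log2FC 1.66, SE 0.24, adjusted p 6.61e-06) and TNFAIP3 rose in ATRX_WT (log2FC 2.26, SE 0.27, adjusted p 1.30e-06). PTX3 fell in both (−2.19 and −2.56, adjusted p 6.78e-09 and 1.07e-09). Of subunits and kinases, 5 were higher and 4 lower of 15 in DAXX_WT, and 3 and 7 of 15 in ATRX_WT. RELB rose (1.89 and 1.52, adjusted p 5.63e-08 and 1.99e-06) in both. The kinase genes CHUK (−1.25 and −1.22, adjusted p 3.55e-08 and 3.36e-06) and MAP3K7 (−1.15 and −1.16, adjusted p 1.13e-10 and 5.79e-09) fell in both. Of C/EBP, AP-1 and STAT3 regulators, 6 were higher and 9 lower of 18 in DAXX_WT and 5 and 8 of 19 in ATRX_WT. ATF3, a stress-induced transcription factor gene, rose in both (3.90 and 4.21, adjusted p 5.34e-17 and 2.02e-14). Of mRNA decay factors, 1 was higher and 8 lower of 12 in DAXX_WT and 1 and 6 of 12 in ATRX_WT, with HNRNPD lower in both (−0.76 and −1.02, adjusted p 2.31e-09 and 1.27e-09). Of interleukin-1 processing genes, 3 were higher and 2 lower of 8 in DAXX_WT and 4 and 3 of 8 in ATRX_WT, with CASP1 higher in both (0.57 and 0.95, adjusted p 0.0485 and 0.000313). Of the receptors, 3 were higher and 3 lower of 8 in DAXX_WT and 3 and 2 of 8 in ATRX_WT, IL6R being higher and IL6ST lower in both (IL6R 0.75 and 1.5, IL6ST −0.87 and −0.64, adjusted p at most 0.00672).

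**Figure D4:**
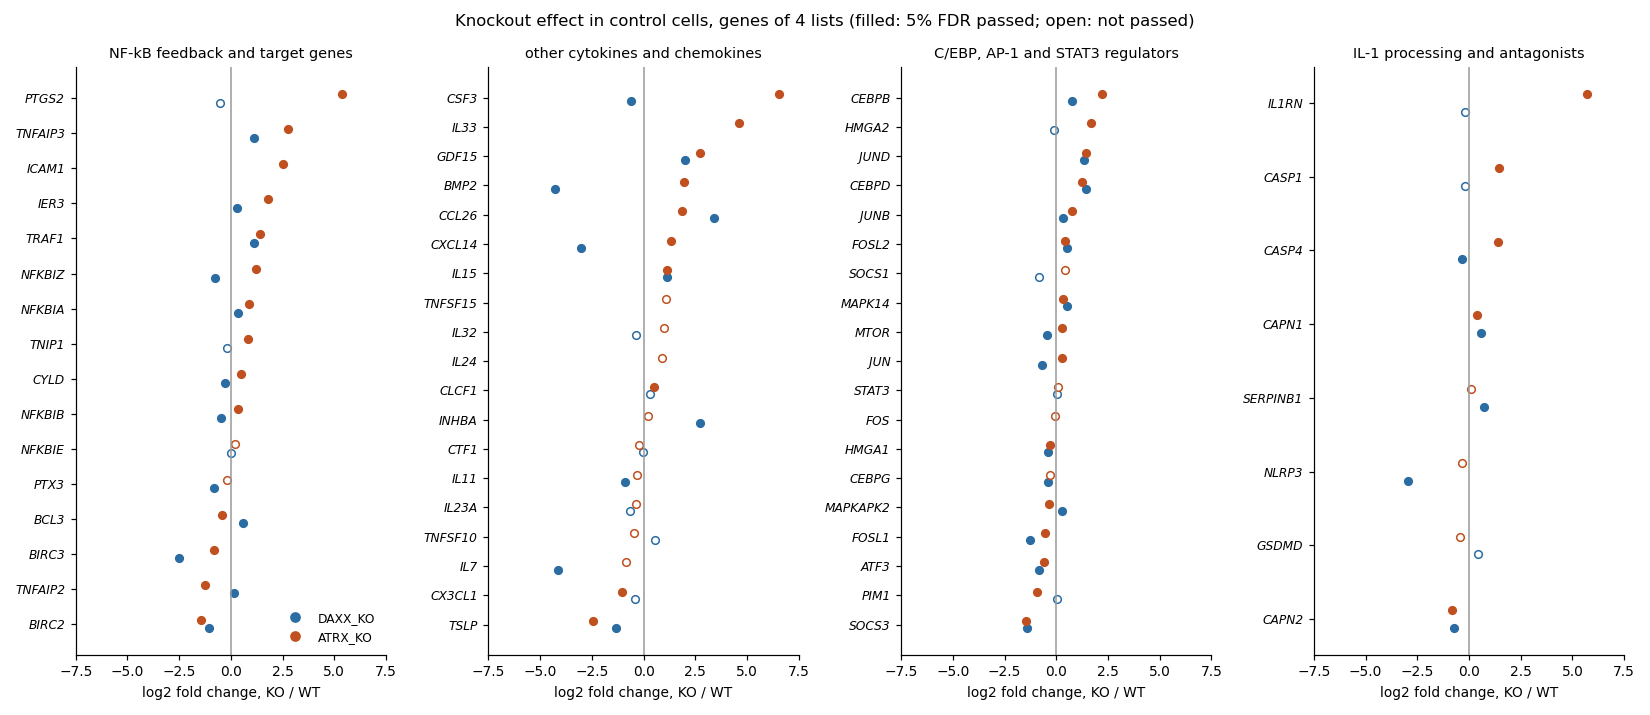
Log2 fold change of KO against WT in control cells for the tested genes of 4 lists, in blue for DAXX_KO and orange for ATRX_KO; filled points passed an FDR of 5%, and a gene with 1 point was tested in 1 series. PTGS2, CSF3 and IL1RN stand above 5 in ATRX_KO, and their DAXX_KO points lie below 0.

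Likeness of pattern over the 24 libraries was described by Pearson's r of log2 CPM. It was 0.93 between IL1B and CXCL3, 0.91 between IL1B and CXCL2, 0.91 between CXCL8 and CXCL3, and −0.86 between CCL2 and CSF1. These values describe 8 groups of 3 libraries and carry the group differences given above. The genes most like CXCL8 were PTGS2 (r = 0.952), NFKB2 (0.933) and ICAM1 (0.919), and those most like CXCL3 were ZC3H12A (0.955), SAA1 (0.934) and C3 (0.932). For IL1B they were ZNF793-AS1 (0.979), ZNF808 (0.973) and CSF3 (0.973). CCL2 was closest to SLC1A1 (0.964), ENSG00000263731 (0.964) and PLAU (0.962), and CSF1 to ELOVL7 (0.957), ABCA1 (0.954) and BDKRB1 (0.944). IL1A was closest to AKR1A1 (0.917), AGTRAP (0.911) and SWI5 (0.909), LIF to CLINT1 (0.932), ARCN1 (0.931) and TCF20 (0.931), and IL6 to GTPBP2 (0.825), ZNF320 (0.793) and CASC2 (0.744).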

How the data were processed

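QuantSeq 3′ mRNA libraries were sequenced as single 75-base reads. The authors aligned the reads to hg19 with STAR and quantified Ensembl GRCh37 genes with RSEM (1.2.3 in the submitters' processing notes), and deposited the expected counts of 24 libraries as whole numbers. The table held 57736 gene identifiers, of which 55501, with 98.8% of the counts, were paired with a symbol by the GENCODE annotation of GRCh37. Library totals were 6928950 to 10410014 counts (DAXX) and 10124817 to 13298557 counts (ATRX), and TMM factors were 0.921 to 1.08.

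Groups were taken from sample titles. For DAXX_KO the genotype field reads ATRX KO, against the title and against the lower DAXX mRNA there. Differential expression was computed with edgeR 4.0.16 (R 4.3.3, limma 3.58.1): filterByExpr (minimum count 10, minimum total 15), TMM scaling and the quasi-likelihood test in a model of the 4 groups of a series (15247 genes in the DAXX and 16371 in the ATRX series), with Benjamini-Hochberg adjustment over all tested genes. Contrasts between series used a model of all 8 groups (16674 genes). Pearson correlations used log2 CPM with a prior count of 2. Alternatives were DESeq2 1.42.0 (the tool of the study), RLE size factors, library totals, other filters, fits of 2 groups or 24 libraries, each library left out, and a replicate block. Scripts were tested on simulated counts. Promoters came from RefSeq (GRCh38.p14), and 7 of the 10 genes matched by symbol.

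The 10 genes and the lists of receptors, regulators, other cytokines and cell type markers (147 entries, 142 matched) were chosen with earlier results of these data known. From each list, the 3 genes with the largest change among those called and at 5 CPM or more in 1 group were named; other list genes named were chosen after their values were seen. Most similar genes were the 3 with the highest correlation over 24 libraries, and CXCL1, not tested in the DAXX series, was left out of that rule. Those of CXCL2 are not reported here.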

Additional observations from a re-analysis of the deposited data

Results flagged for a closer look

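Effects that differed between clones, series or treatments by a test of the difference (edgeR, adjusted over all genes) are listed here, and no explanation was weighed. The knockout effect in control cells was lower in DAXX_KO than in ATRX_KO for 6 genes. The difference, DAXX_KO minus ATRX_KO on the log2 scale, was −7.32 for IL1B, −5.99 for CXCL1, −5.52 for CXCL8, −3.28 for CXCL3, −3.15 for LIF and −2.83 for CXCL2. These adjusted p values ranged from 1.77e-11 for IL1B to 0.0202 for CXCL2. The CXCL2 difference was not called without DAXX_WT control replicate 1 or 2. CXCL8 and CXCL1 rest on low counts in the DAXX series, where CXCL8 had 3, 2 and 2 counts and CXCL1 had 1, 0 and 1 in DAXX_KO control libraries. The adjusted p of CXCL1 is therefore not read as a test of replicates. The etoposide response of CXCL8 was larger in DAXX_KO than in its WT by 3.70 (adjusted p 0.000674). In the model of 24 libraries this CXCL8 difference did not pass (3.73, adjusted p 0.0976). The etoposide response of CSF1 was smaller than in WT, the difference being −1.76 in DAXX_KO (adjusted p 6.25e-05) and −2.17 in ATRX_KO (adjusted p 2.29e-06). Between the WT cells of the series, CSF1 responded more in the ATRX series by 1.17 (adjusted p 0.0184). This CSF1 difference stayed called in 9 of 12 fits that left out a library.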

How the results depend on the processing

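With a filter of at least 10 counts in every library, which leaves out most of the low genes, the number of the 10 genes called was 2 for the knockout effect in DAXX_KO control cells, 1 with etoposide, 1 for the response of DAXX_WT, 1 for that of DAXX_KO, 1 for their difference, 0 between the WT cells of the series and 1 for the difference between knockout effects. For the response of DAXX_WT it was 3 with DESeq2, 3 with no filter and 3 in the model of 24 libraries, against 6 in the report. That model also gave 1 in place of 2 for the response difference of DAXX_KO. With no filter, 7 genes were called for the response of ATRX_KO in place of 4, 4 between the WT control cells of the series in place of 1 (2 with DESeq2), and 3 for the difference between WT responses in place of 1. The calls with no filter are not to be read as measuring the spread between libraries. CXCL8 in ATRX_KO had an adjusted p of 4.64e-11 there, although its control and etoposide libraries overlapped. Leaving out each library gave 3 to 6 genes for the knockout effect in DAXX_KO control cells, 3 to 4 for the response of DAXX_WT, 4 to 7 for that of ATRX_KO and 0 to 1 for the difference between WT responses. The filters change which genes enter the fit, and the cause of the other differences was not tested.

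Of 821 log2 fold changes of the 10 genes under alternatives that kept all libraries, 771 kept their side of the threshold. Of the rest, 28 were no longer called, 22 were newly called and 0 reversed a call. Direction was compared only where the gene was called in the main fit or the alternative, so uncalled values may have changed sign. With 1 library left out, the numbers were 923, 49, 12 and 0 of 984. These totals leave out 90 values not tested under the alternative and 10 without an adjusted p. Scaling by library totals alone shifted the median of all genes by 0.18 for the knockout effect in DAXX_KO control cells, 0.12 for the difference between knockout effects, and −0.11 for the response of DAXX_KO and its difference from WT. Deviations of each library from its group mean of log2 CPM were correlated between same-numbered libraries of different groups. The correlations were −0.209 to 0.0511 over 36 pairs, so replicate numbers were not taken as pairing. The replicate block gave 4 called genes in place of 6 for the response of DAXX_WT and 5 in place of 6 for DAXX_KO, losing CXCL2 (1.24, adjusted p 0.0554, and 0.98, adjusted p 0.0585) and CXCL3 (1.03, adjusted p 0.0523), and changed no other call of the 10 genes. Of the 10 genes, 8 (not CSF1 and IL1B) had under 10 counts in at least 1 library, IL6 in 14 of the 24, CXCL1 in 12 and CXCL2 in 11, and their values are less precise.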

Other observations

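Among the other cytokine genes, some with low or mid levels moved strongly in control cells, and were chosen after their values were seen. BMP2, a growth factor of the TGF-beta family, fell in DAXX_KO (log2FC −4.27, SE 0.64, adjusted p 1.33e-05) and rose in ATRX_KO (log2FC 1.94, SE 0.30, adjusted p 5.33e-05). CXCL14, another CXC chemokine, had a log2 fold change of −3.00 in DAXX_KO (adjusted p 7.65e-05) and 1.31 in ATRX_KO (adjusted p 0.00724). CCL26 rose in both clones (3.42 and 1.85, adjusted p 9.21e-07 and 0.000370), and so did IL15, a lymphocyte growth factor (1.12 and 1.15, adjusted p 0.0385 and 0.0293). In DAXX_KO, IL7 fell (log2FC −4.13, SE 0.63, adjusted p 2.87e-05) and the activin subunit gene INHBA rose (log2FC 2.72, SE 0.56, adjusted p 0.000414). In ATRX_KO, IL33, an alarmin of the interleukin-1 family, passed the test at very low counts (adjusted p 0.0460), with 0, 0 and 0 counts in WT and 1, 1 and 7 in ATRX_KO control libraries. Most of these counts came from 1 library and are too low to measure the spread, so the adjusted p is not read as a test of replicates.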
